A study of Mus musculus with 2 samples.

Results

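The Fc gamma receptors of the mouse and the signalling chain they share were described in tumor-infiltrating cells. The genes are Fcgr1, Fcgr3, Fcgr4, Fcgr2b and Fcer1g, taken by symbol with earlier results of these data known, and they are 5 of the 27998 genes in the deposited matrices. Fc gamma receptors bind the constant part of IgG and thereby tie antibody-coated cells and particles to the leukocyte that carries the receptor. Fcgr1 (CD64, the high-affinity receptor), Fcgr3 (CD16) and Fcgr4 are activating, and they signal through the immunoreceptor tyrosine-based activation motif (ITAM) of the common gamma chain encoded by Fcer1g. Fcgr2b (CD32) is the inhibitory receptor, with an inhibitory motif of its own that recruits phosphatases, and the amount of activating receptor relative to Fcgr2b is a common way to describe how readily a myeloid cell responds to IgG. In mice, macrophages and monocytes carry each of these receptors, NK cells carry Fcgr3, and T cells are generally without them.

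YUMMER1.7 cells, a mouse melanoma line, had been grafted under the skin of male C57BL/6 mice aged 8 weeks, which were wild type (WT) or lacked the ubiquitin ligase Siah2 (Siah2-/-). After 11 days the tumors of a group were digested together, and live CD45+ cells were sorted and mixed with a smaller number of CD45- cells. The cells had been exposed to an Fc block antibody, which binds the receptor proteins, and only RNA was counted here. Each genotype is 1 single-cell library, so that genotype, pool of tumors, sort and sequencing lane cannot be told apart and no test between genotypes was possible.

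The WT library held 4512 analysed cells with a median of 11439.5 UMIs (unique molecular identifiers, 1 count for each captured RNA molecule), and the other library held 5563 cells with a median of 8700 UMIs. The totals were 64793053 and 59090284 UMIs, and the lowest cell had 6670 and 4896 UMIs, respectively. Siah2 itself was counted in both, with 660 UMIs in the WT library and 505 UMIs in the other, which is 10.2 and 8.55 CPM (UMIs on the counts-per-million scale). Because 3′ reads outside a deleted part would still be counted, this does not check the genotype, and the library is called the library labelled Siah2-/- below. A cell barcode occurred in both libraries for 34 barcodes.

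Fcgr2b, Fcgr4, Fcgr3 and Fcer1g lie close together on chromosome 1 of GRCm38, at chr1:170958617-170976547 (minus strand), chr1:171018920-171029761 (plus strand), chr1:171051174-171064935 (minus strand) and chr1:171229572-171234365 (minus strand). Fcgr1 lies apart from them at chr3:96282909-96293969 on the minus strand. Fcgr2b and Fcgr3 are close relatives in their ligand-binding part. In the last 500 bases of their annotated transcripts, where the 3′ reads fall, 0.52% of the 31-base words of Fcgr3 and 3.06% of those of Fcgr2b also occurred in the other gene. The shares of words found in any other gene were 3.40% for Fcgr4, and 0 of 940 words for Fcgr1 and 0 of 844 for Fcer1g.

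The bases before the RefSeq starts (GRCm38.p6) of Fcgr1 and Fcgr4 are shown, because among the 5 macrophage states described below their levels were highest in the one marked by interferon-induced genes. Capitals mark matches to 3 motifs, searched on both strands. These were the gamma-activated site TTCNNNGAA of genes induced by interferon gamma, the interferon-stimulated response element (GAAA, any 2 bases, GAAA) bound by interferon regulatory factors, and the core GAGGAA bound by the myeloid factor PU.1, which reads TTCCTC on the opposite strand.
Fcgr1, chr3:96293970-96294219, minus strand: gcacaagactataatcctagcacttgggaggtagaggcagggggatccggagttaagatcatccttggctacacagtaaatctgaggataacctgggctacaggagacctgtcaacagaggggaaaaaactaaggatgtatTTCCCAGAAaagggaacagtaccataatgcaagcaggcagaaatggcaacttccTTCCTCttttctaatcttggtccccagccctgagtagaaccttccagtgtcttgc
Fcgr4, chr1:171018676-171018919, plus strand: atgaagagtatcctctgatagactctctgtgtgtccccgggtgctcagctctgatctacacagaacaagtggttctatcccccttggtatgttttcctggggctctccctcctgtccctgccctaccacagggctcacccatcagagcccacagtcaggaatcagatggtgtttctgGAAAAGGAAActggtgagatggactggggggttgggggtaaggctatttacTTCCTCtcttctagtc
The match in Fcgr1, TTCCCAGAA, was the only gamma-activated site within 250 bases before the RefSeq starts of the 5 genes, and it lay 109 to 101 bases before the start. The only interferon-stimulated response element was in Fcgr4, GAAAAGGAAA, 73 to 64 bases before its RefSeq start, which lies 6 bases after the end of the stretch shown, since that stretch was ended at the gene start given above. Of 32851 promoter windows of the same length, 7.02% held a gamma-activated site, 2.98% held an interferon-stimulated response element and 23.3% held the PU.1 core. The PU.1 core was found in the windows of Fcgr1, Fcgr3 and Fcgr4, and none of the 3 motifs was found in those of Fcgr2b and Fcer1g. The windows of Fcgr3 and Fcgr2b lie inside the genes as placed above, and that of Fcer1g overlaps its gene. For Fcgr3 and Fcgr2b the bases before the gene starts given above were not searched. A match is a stretch of letters, and no binding was measured.

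Cells were grouped by marker genes, none of which is one of the 5 genes. Levels are CPM, the UMIs of a gene against all UMIs of the class on the counts-per-million scale, with the exact 95% Poisson interval of the count, which covers counting error only. One UMI is 1 captured molecule whatever the length of the transcript. How well each gene is captured was not measured, so orders and ratios between genes are those of counted molecules. All 5 genes were highest in macrophages. Fcer1g stood at 5935 CPM (5903 to 5967) in the 1959 WT macrophages and at 6167 (6136 to 6199) in the 2278 macrophages of the library labelled Siah2-/-. Fcgr3 was the most abundant receptor in both, with 1101 and 1312 CPM. Fcgr2b was at 749 and 925, Fcgr1 at 739.6 and 717, and Fcgr4 at 669 and 836, so that Fcgr4 was the lowest receptor in the WT library and Fcgr1 in the other. Fcgr1 and Fcgr2b lay within counting error of each other in the WT library and apart in the other. Summed over the 3 activating receptors there were 2.37 Fcer1g UMIs for each receptor UMI in WT macrophages and 2.15 in the others.

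**Figure D1:**
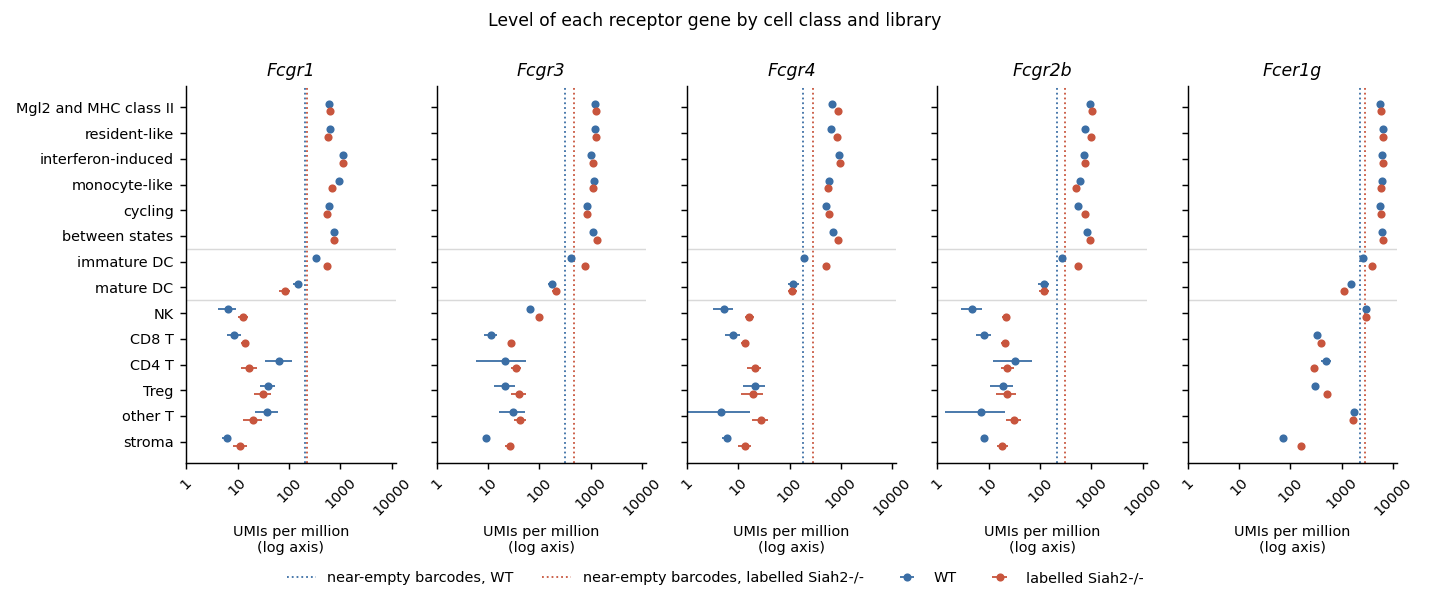
CPM (log axis) of each gene by cell class in the WT library and the library labelled Siah2-/-, with exact 95% Poisson intervals; dotted lines are the level in near-empty barcodes. The macrophage states lie together at the right for every gene. DC lie below them, except that immature DC of the library labelled Siah2-/- exceed cycling cells in Fcgr1 and monocyte-like cells in Fcgr2b. NK, T and stromal cells lie far to the left for the 4 receptors but not for Fcer1g in NK cells.

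At an equal depth of 4800 UMIs a cell, nearly every macrophage had a UMI of these genes. Fcer1g was found in 100% of macrophages in both libraries, and Fcgr3 in 98.5% and 97.6%. Fcgr1 was found in 92.8% of WT macrophages and 90.1% of the others, Fcgr2b in 92.5% and 91.5%, and Fcgr4 in 87.0% and 89.4%. Without thinning these shares lay between 94.0% and 100%. A single macrophage thus usually carried both kinds of receptor RNA. An activating receptor and Fcgr2b were found together in 92.5% of WT macrophages and 91.4% of macrophages of the library labelled Siah2-/-. Cells with Fcgr2b and no activating receptor were 0.051% and 0.088%. Activating UMIs outnumbered those of Fcgr2b in 94.6% and 95.1% of macrophages, and the reverse held in 3.06% and 2.77%.

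The receptors had different orders among the 5 macrophage states described here, which were gated by their own markers, and of these the highest was the same in both libraries for Fcgr1, Fcgr4 and Fcgr2b. Fcgr1 was highest in interferon-induced macrophages, which are marked by Ifit, Isg15 and related genes, at 1121 CPM in the WT library (1081 to 1163, 246 cells) and 1106 in the other (1065 to 1149, 237 cells). The pooled other named states held 658 and 635 CPM, a difference of 0.77 (0.71 to 0.83) and 0.80 (0.74 to 0.86) on the log2 scale. Of the 5 genes, Fcgr1 was at least 1.5-fold higher there in both libraries, against 7.94% of 10543 genes at least 1.5-fold higher in that state in the WT library and 8.08% of 10619 genes in the other. Fcgr4 in the same cells was at 902 and 951 CPM, against 606 and 801 in the other states, a difference of 0.57 and 0.25 on the log2 scale. The first value lay just inside 1.5-fold, and it was past it, at 0.75, with stricter gates and inside, at 0.46, with classes by nearest centroid. Fcgr2b did not share this pattern and was at 708 and 763 CPM in interferon-induced macrophages, against 728 and 946 elsewhere.

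Of these states, macrophages marked by Mgl2 and MHC class II genes had the highest Fcgr2b, at 948 CPM (911 to 986) in the WT library and 1014 (969 to 1061) in the other. Resident-like macrophages followed with 764 and 966 CPM, apart from them in the WT library and within counting error in the other. The same 2 states had the highest values of Fcgr3, with 1191 and 1287 CPM in Mgl2 and MHC class II cells and 1199 and 1270 in resident-like cells, and their intervals overlapped in both libraries. In the WT library monocyte-like cells, at 1146 CPM (1096 to 1197), overlapped both. With stricter gates the Mgl2 and MHC class II state held 3 instead of 254 WT cells and 0 instead of 156 cells of the other library. Its values therefore hold for the plain gates only.

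Cycling macrophages had the lowest Fcgr3, at 853 and 838 CPM. This was past 1.5-fold below the other states in the library labelled Siah2-/-, at 1.66-fold, and inside at 1.37-fold in the WT library, where 11.3% and 7.98% of genes were at least 1.5-fold lower. They also had the lowest Fcgr1 in the library labelled Siah2-/-, at 538, within counting error of the resident-like state at 572. Monocyte-like cells, marked by Chil3, Vcan and Ly6c2, were next to the interferon-induced state in Fcgr1, with 953 CPM in the WT library. In the other library they had 686 CPM, within counting error of the Mgl2 and MHC class II state at 633. They were low in Fcgr2b, with 589 and 499.8 CPM. In the library labelled Siah2-/- this was 0.501 times the level of the other states, and Fcgr4 was 1.58-fold below them, where 23.7% of genes were at least 1.5-fold lower. In the WT library, with 23.7% as well, both stayed inside 1.5-fold. Fcer1g was nearly flat. Over the 5 states its highest level exceeded its lowest by 1.15-fold in the WT library and 1.11-fold in the other, whereas the receptors spanned 1.41-fold to 2.06-fold.

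Between the genotypes, none of the 5 genes differed by 1.5-fold in macrophages, where 10.4% of 11835 genes were at least 1.5-fold higher in the library labelled Siah2-/- and 8.73% at least 1.5-fold lower. The log2 ratio of that library over WT was 0.32 (0.29 to 0.35) for Fcgr4, 0.30 (0.28 to 0.33) for Fcgr2b and 0.25 (0.23 to 0.28) for Fcgr3. It was 0.06 (0.04 to 0.07) for Fcer1g and -0.05 (-0.08 to -0.01) for Fcgr1. The intervals of the first 3 lie above 0, but they hold no spread between mice. The median over the 5 genes was 0.25, beside -0.04 over all genes tested. With the WT mix of macrophage states in both libraries, Fcgr3 moved from 0.25 to 0.11, Fcgr4 to 0.26 and Fcgr2b to 0.22.

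Within single states, none of the 5 genes was past 1.5-fold in any of the states described or among cells between states, and the share of all genes past it in each was as follows. In Mgl2 and MHC class II cells 10.0% of genes were at least 1.5-fold higher and 6.39% lower, and in resident-like cells the shares were 9.88% and 9.64%. In interferon-induced cells they were 10.5% and 7.65%, in monocyte-like cells 11.9% and 10.0%, in cycling cells 8.3% and 6.76%, and between states 9.79% and 6.88%. Fcgr4 was higher in the library labelled Siah2-/- beyond counting error in the Mgl2 and MHC class II, resident-like and cycling states. In interferon-induced and monocyte-like cells its interval reached 0. The widest difference within a macrophage state was for Fcgr1 in monocyte-like cells, with 953 CPM in 199 WT cells and 686 in 377 cells of the other library, a log2 ratio of -0.47 (-0.57 to -0.38). In cycling macrophages Fcgr2b was at 558 and 741 CPM, a log2 ratio of 0.41 (0.32 to 0.50). For each of the 5 genes, the widest ratio between the libraries within one of these states was smaller than the ratio of its highest to its lowest state in either library.

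**Figure D2:**
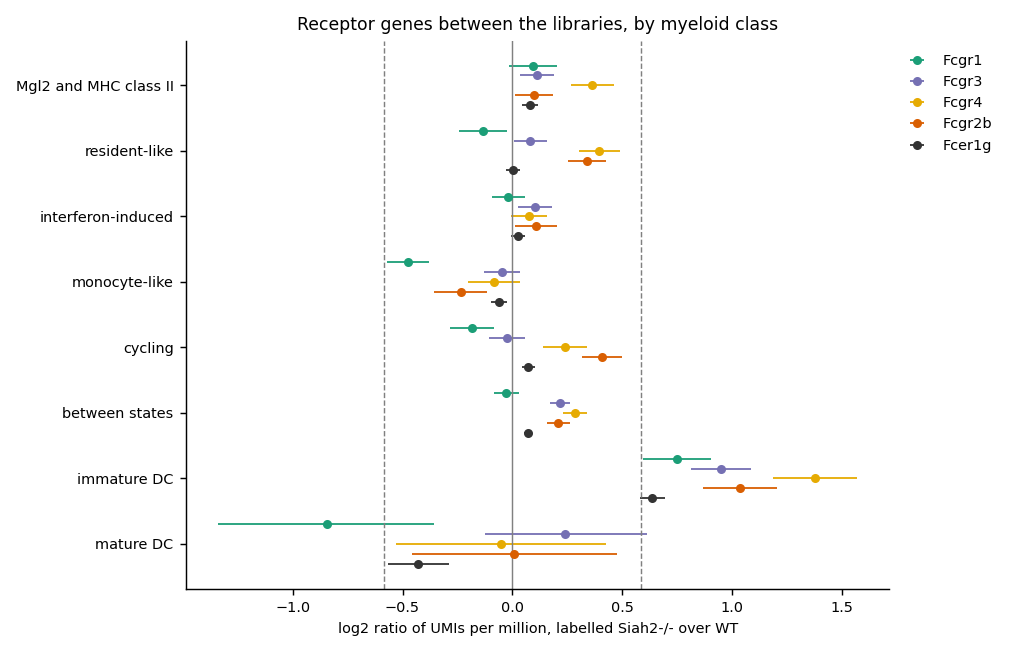
Log2 ratio of CPM, library labelled Siah2-/- over WT, of each gene by myeloid class, with exact 95% counting intervals; dashed lines are 1.5-fold. All macrophage points lie inside the dashed lines, all 5 points of immature DC lie above 0.58, and Fcgr1 in mature DC lies at -0.84.

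The activating to inhibitory balance was taken as UMIs of Fcgr1, Fcgr3 and Fcgr4 together for each UMI of Fcgr2b. In macrophages it was 3.35 (3.29 to 3.41) in the WT library and 3.10 (3.05 to 3.14) in the library labelled Siah2-/-, a log2 ratio of -0.11 (-0.15 to -0.08). Fcgr3 made up 43.9% and 45.8% of the activating UMIs, Fcgr1 29.5% and 25.0%, and Fcgr4 26.7% and 29.2%. Leaving Fcgr1 out of the sum brought the log2 ratio to -0.03, and thinning all cells to the same depth brought it to -0.04.

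The balance differed more among states than between libraries. It was highest in monocyte-like cells, at 4.56 and 4.70, and in interferon-induced macrophages, at 4.32 and 4.15. Mgl2 and MHC class II cells, nearly all of which were lost with stricter gates, stood at 2.59 and 2.74. The highest state exceeded the lowest by 1.76-fold in either library. Fcgr1 took 36.7% and 34.9% of the activating UMIs in interferon-induced cells and 35.5% and 29.2% in monocyte-like cells, against 25.4% and 21.3% in resident-like cells. Between libraries, the largest gap within a state was in cycling macrophages, with 3.53 in the WT library and 2.66 in the other, a log2 ratio of -0.41 (-0.51 to -0.30). Resident-like macrophages, marked by Folr2, Fcrls and Cd163, were at 3.24 and 2.78, a log2 ratio of -0.22 (-0.32 to -0.12). In the Mgl2 and MHC class II, interferon-induced and monocyte-like states the interval of the log2 ratio held 0.

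**Figure D3:**
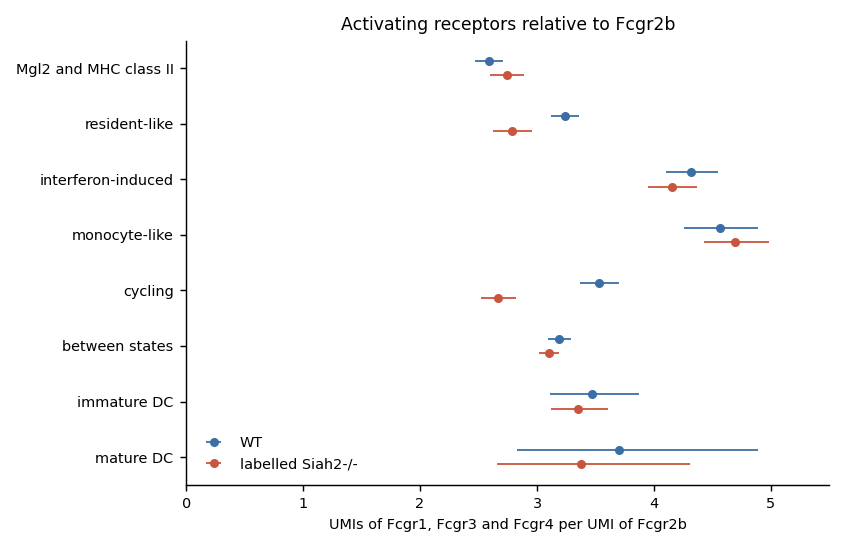
UMIs of Fcgr1, Fcgr3 and Fcgr4 together for each UMI of Fcgr2b by myeloid class and library, with exact 95% binomial intervals. Monocyte-like and interferon-induced cells lie above 4 in both libraries, Mgl2 and MHC class II cells below 3, and the libraries part in cycling and resident-like cells.

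Immature DC, which take up and present antigen, held all 5 genes at lower levels than macrophages. Fcgr3 was at 408 CPM in 151 WT cells and 787 in 183 cells of the library labelled Siah2-/-, Fcgr1 at 334 and 559.9, Fcgr2b at 269 and 551, Fcgr4 at 193 and 500.3, and Fcer1g at 2550 and 3964. All 5 were past 1.5-fold higher in the library labelled Siah2-/-, where 13.8% of 7837 genes were at least 1.5-fold higher and 11.0% at least 1.5-fold lower. The log2 ratio was largest for Fcgr4, at 1.38 (1.19 to 1.57), and smallest for Fcer1g, at 0.64 (0.58 to 0.69). The balance was 3.47 and 3.35, a log2 ratio of -0.05 (-0.24 to 0.14).

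Macrophage markers moved with this difference. Of the 9 genes of the macrophage list, 4 were past 1.5-fold higher in the immature DC of the library labelled Siah2-/- (Csf1r, Adgre1 and Lyz2 among them), and the summed level of all 9 was 3429 CPM in the WT library and 6509 in the other. Cells with at least 20 UMIs of that list per 10000 were 36.4% of the gate in the WT library and 62.3% in the other. Those cells had the DC regulator Zbtb46 below 5 CPM, against 55.2 in the rest of the gate, in both libraries. Xcr1, a marker of conventional DC, was at 0 UMIs in them in the WT library and at 1.03 CPM in the other, whereas Cd209a was at 249.7 and 309.9. Fcgr3 in them was at 1183 and 1323 CPM, as high as in macrophages. Cells under that limit held Xcr1 at 119 and 36.3 CPM and Fcgr3 at 73.2 and 88.8. In these 96 and 69 cells Fcgr4 was at 49.7 and 119.8 CPM, a log2 ratio of 1.27 (0.77 to 1.78), and Fcgr2b at 59.7 and 114, a log2 ratio of 0.94 (0.46 to 1.43). Fcgr1 was at 160.0 and 238, Fcer1g at 1251 and 1707, and with Fcgr3 they lay inside 1.5-fold, so that 2 of the 5 genes passed it, both higher, where 11.8% of all genes were at least 1.5-fold higher and 11.7% lower. In the 55 and 114 cells at or above the limit Fcgr4 alone passed it, higher at 525 and 792 CPM, where 13.9% of all genes were at least 1.5-fold higher and 10.0% lower. Over the whole gate, 3 of the 5 genes passed it with cells thinned to 1 depth and 2 with classes taken by nearest centroid. Fcer1g, Fcgr1 and Fcgr3 lost their calls under some choices: Fcer1g was at 0.50 and Fcgr1 at 0.56 in thinned cells, and with nearest centroids Fcer1g was at 0.37, Fcgr1 at 0.18 and Fcgr3 at 0.50. The part of cell makeup in the difference was otherwise not tested.

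Mature DC, marked by Ccr7, had lower levels still. Fcgr3 was at 178 and 210.2 CPM in 50 and 75 cells, Fcgr1 at 147 and 82.0, Fcgr2b at 119.7 and 120.3, Fcgr4 at 118 and 114, and Fcer1g at 1525 and 1134. Fcgr1 was the 1 gene past 1.5-fold, lower in the library labelled Siah2-/- at a log2 ratio of -0.84 (-1.34 to -0.36), where 12.3% of 5337 genes were at least 1.5-fold lower and 14.0% higher. This value rests on 86 and 62 UMIs, of which 1 cell held 22.1% and 33.9%, respectively. Macrophage markers were lower with it: 4 of the 9 were past 1.5-fold lower and none higher, their summed level was 5072 and 3682 CPM, and C1qa was at 1178 and 695. Their part in the difference was not tested. It was -1.96 without the 5% of cells with most UMIs, and inside 1.5-fold at -0.55 with classes by nearest centroid and -0.36 over all barcodes with at least 1000 UMIs. The calls of the other 4 genes turned with these choices as well. Without the 5% of cells with most UMIs all 5 genes were past 1.5-fold lower, with Fcgr3 at -1.12, Fcgr4 at -1.28, Fcgr2b at -0.98 and Fcer1g at -1.08. Over all barcodes with at least 1000 UMIs, Fcgr3 at 0.84 and Fcgr2b at 0.73 were past 1.5-fold higher, and with stricter gates Fcgr4 was past it lower, at -0.61.

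Outside the myeloid classes, levels were read against RNA released into the droplets. Near-empty barcodes, with 10 to 100 UMIs, held 202 and 225 CPM of Fcgr1, 316 and 468 of Fcgr3, 181 and 283 of Fcgr4, 213 and 301 of Fcgr2b, and 2322 and 2851 of Fcer1g. Stromal cells, marked by collagens, should lack all 5 genes. They held each at a like share of its near-empty level, from 2.93% to 3.83% in the WT library and from 4.78% to 6.19% in the library labelled Siah2-/-. All 5 were past 1.5-fold higher in the stroma of that library, where 11.4% of genes were at least 1.5-fold higher and 10.6% lower. The stromal share of each library serves as its background share below.

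**Figure D4:**
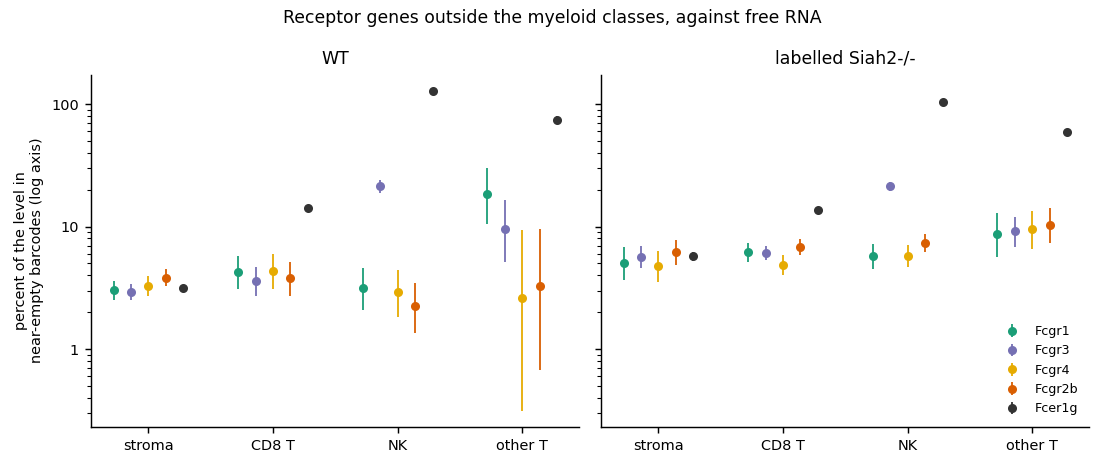
Level of each gene in stromal, CD8 T, NK and other T cells as a percent of its level in near-empty barcodes of the same library (log axis), with 95% Poisson intervals of the class counts. The 5 genes lie together in stroma, whereas Fcgr3 stands apart in NK cells and Fcer1g in CD8 T, NK and other T cells.

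NK cells held Fcer1g and, of the receptors, Fcgr3. Fcer1g was at 2947 CPM in 405 WT cells and 2976 in 674 cells of the other library, a log2 ratio of 0.01 (-0.02 to 0.05), and every NK cell had a UMI of it at 4800 UMIs. Fcgr3 was at 67.3 and 99.96 CPM, and was found in 25.7% and 35.6% of NK cells at that depth, beside 2.74% and 10.9% of stromal cells. Without thinning it was found in 44.0% and 51.2% of NK cells, whose median depth was 9300 and 7862.5 UMIs, against 23567 and 26460 in stroma. It stood at 21.3% (18.9 to 24.0) and 21.4% (19.7 to 23.1) of the near-empty level, above the stromal share in both libraries. Its log2 ratio between the libraries was 0.57 (0.36 to 0.78), just inside 1.5-fold, and the call depended on the setting. It was past 1.5-fold at 0.64 with cells thinned to 1 depth, 0.60 with stricter gates and 0.59 without the cell with most UMIs of the gene, and inside at 0.45 with free RNA subtracted and 0.30 with classes by nearest centroid. Near-empty barcodes differed by 0.57 as well. Fcgr1, Fcgr4 and Fcgr2b were at or near the stromal share in NK cells, from 2.23% to 3.17% of the near-empty level in the WT library and from 5.71% to 7.39% in the other. They are read as background, and no balance was taken in NK cells. Of these 3 genes Fcgr2b differed most between the libraries, with 20 and 133 UMIs and a log2 ratio of 2.22 (1.54 to 2.98), beside 1.19 (0.76 to 1.60) in stroma. Whether released RNA makes up all of it was not tested. Of the 5 genes 3 were past 1.5-fold higher in NK cells of the library labelled Siah2-/-, where 13.0% of genes were at least 1.5-fold higher and 5.07% lower, and these were the 3 at background.

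T cells held Fcer1g at levels that differed by subset. In CD8 T cells Fcer1g was at 329 CPM in 434 WT cells and 389.8 in 849 cells of the library labelled Siah2-/-, or 14.1% and 13.7% of the near-empty level. The receptors in CD8 T cells lay between 3.61% and 4.35% of theirs in the WT library and between 4.86% and 6.87% in the other. In CD4 T cells Fcer1g was at 501 CPM in 20 WT cells and 292 in 290 cells of the other library, a log2 ratio of -0.78 (-1.10 to -0.45), where 19.4% of genes were at least 1.5-fold lower and 23.8% higher, and 1 cell held 28.3% of the 92 WT UMIs. This was 21.6% and 10.2% of the near-empty level, beside 7.38% to 7.76% for the receptors in the library labelled Siah2-/-. Markers of other cells differed there too, with Tyrobp at 529 and 208 CPM, the 8 genes of the NK list at 191 and 133 in sum and the 9 of the macrophage list at 376 and 484. Of 7 macrophage markers that could be compared 4 were past 1.5-fold higher and 3 lower, with Lyz2 at 109 and 241 CPM and Cd68 at 81.8 and 22.3. In Treg it was at 306 CPM in 81 WT cells and 517 in 93 cells of the other library, a log2 ratio of 0.76 (0.54 to 0.98), where 11.7% of genes were at least 1.5-fold higher and 14.3% lower, and 1 cell held 21.9% and 24.1% of the UMIs. NK markers were higher with it: of the 8 genes of the list 4 could be compared and all 4 were past 1.5-fold higher, and the list summed to 70.3 and 197 CPM, with Ncr1 at 1.10 and 23.6 and Klrb1c at 11.0 and 32.6. The macrophage list summed to 338 and 539 CPM and Tyrobp was at 256 and 353. At 4800 UMIs a cell, 8.64% and 9.68% of Treg had at least 5 Fcer1g UMIs. The part of other cells or of released RNA in these T cell differences was not tested. Fcgr1 in the WT library was at 32.3% of the near-empty level in CD4 T cells and 19.0% in Treg, on 12 and 35 UMIs, of which 1 cell held 58.3% and 34.3%. T cells with no Cd4 or Foxp3 UMI and under 2 of Cd8 had 1719 CPM of Fcer1g in 49 WT cells and 1695 in 179 cells of the other library. Of these cells 65.3% and 59.8% had at least 5 Fcer1g UMIs at 4800 UMIs a cell, against 13.6% and 11.2% of CD8 T cells and 97.5% and 97.2% of NK cells. The receptors in them rested on 31 activating and 3 Fcgr2b UMIs in the WT library and 109 and 38 in the other, and ran from 2.59% to 18.5% of the near-empty level in the WT library, where 1 cell held 50.0% of the 16 Fcgr1 UMIs, and from 8.76% to 10.4% in the other. Klrb1c, an NK receptor gene also found on innate-like T cells, was at 196 and 188 CPM in them and at 411 and 506 in NK cells, while Cd3e was at 449 and 530.2 and at 6.42 and 13.4. In the same T cells Ncr1 was at 42.1 and 81.4 CPM and Tyrobp at 829 and 1022, and in NK cells Ncr1 was at 570 and 555 and Tyrobp at 3467 and 3412. The part of NK cells in the Fcer1g of these T cells was not tested. Barcodes with both T cell and macrophage markers held Fcgr3 at 693 and 810.3 CPM and a balance of 3.44 and 2.91. Whether these barcodes are doublets was not tested, and they are in no other class.

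The genes that work with the receptors were described in macrophages, from lists chosen for their roles. Their counts stand beside the 10.4% of all genes that were at least 1.5-fold higher in macrophages and the 8.73% that were lower. Of 16 genes of Fc receptor signalling, such as the kinases Syk and Lyn and the adaptor Lcp2, none was past 1.5-fold, with a median log2 ratio of -0.02. Rac2 was at 438 and 403 CPM, Lyn at 253 and 255, Lat2 at 253 and 219.6, Vav1 at 111 and 95.9, Lcp2 at 101.2 and 101.5, Fgr at 72.5 and 105 and Was at 70.6 and 69.0. Syk, the kinase that docks on the phosphorylated gamma chain, was at 39.1 and 48.5 CPM. Of 13 genes of inhibitory signalling, 3 were past 1.5-fold higher and none lower, against 10.4% and 8.73% of all genes, with a median of 0.12. These were the leukocyte inhibitory receptors Lilr4b (113.5 and 238 CPM), Lilrb4a (304 and 536) and Pirb (164 and 252). The phosphatases that act downstream of Fcgr2b were inside, with Ptpn6 at 428 and 374 CPM and Inpp5d, which encodes SHIP1, at 89.8 and 83.3. Sirpa was at 187 and 202, Dok3 at 125 and 112, Cd300a at 105 and 121 and Dok2 at 99.8 and 131.6.

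Of 12 genes of receptors that pair with Fcer1g and of other ITAM adaptors, 10 could be compared, and 5 were past 1.5-fold higher and none lower, against 10.4% and 8.73% of all genes, with a median of 0.51. The C-type lectin receptor genes Clec4d (34.2 and 126.7 CPM) and Clec4e (43.4 and 118) had log2 ratios of 1.89 (1.78 to 2.01) and 1.45 (1.34 to 1.55), and Pira2, an activating receptor, was at 46.5 and 95.7. Clec4n, also a lectin receptor, was at 391 and 452, and Clec4a2 at 489 and 331. Tyrobp, which encodes the ITAM adaptor DAP12, was at 3072 and 3281, and Hcst at 79.5 and 103. Ncr1 and Cd247, the other 2 past 1.5-fold, mark NK and T cells and were below 5 CPM in both libraries. Of 14 other immunoglobulin receptors, 10 could be compared, 2 were higher and 7 lower, against 10.4% and 8.73% of all genes, with a median of -1.23. Fcgrt, the neonatal Fc receptor that recycles IgG, was at 148 and 64.6 CPM, a log2 ratio of -1.20 (-1.29 to -1.11). Fcrls was at 191 and 8.11, and it is also a gate marker of resident-like macrophages, of which the WT library held 391 and the other 101. Lgals3, whose galectin binds IgE among other glycoproteins, was at 1456 and 2609. Trim21, Fcrlb, Fcrla, Fcer1a, Fcrl5, Fcrl1 and Fcmr were below 10 CPM in both libraries.

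Of 15 genes of the interferon gamma response, 6 were past 1.5-fold higher in macrophages and none lower, against 10.4% and 8.73% of all genes, with a median of 0.47. The 6 were Gbp2 (380.3 and 789.8 CPM), Irf1 (109 and 183), Socs1 (70.4 and 116), Cd274 (43.3 and 119.8), Gbp5 (36.6 and 59.5) and Nos2 (3.98 and 38.5). Inside 1.5-fold, Cxcl10 was at 626 and 757, Cxcl9 at 402 and 487, Irf8 at 402 and 378, Igtp at 153 and 222, Iigp1 at 145 and 186 and Gbp3 at 139.6 and 168. Fcgr1, a textbook target of interferon gamma with the gamma-activated site shown above, was at 739.6 and 717 in the same cells. In immature DC 13 of the 15 were past 1.5-fold higher, against 13.8% of all genes, and none lower, against 11.0%, with a median of 0.84, and Fcgr1 was 0.75 higher on the log2 scale, in the gate where macrophage markers were higher too.

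**Figure D5:**
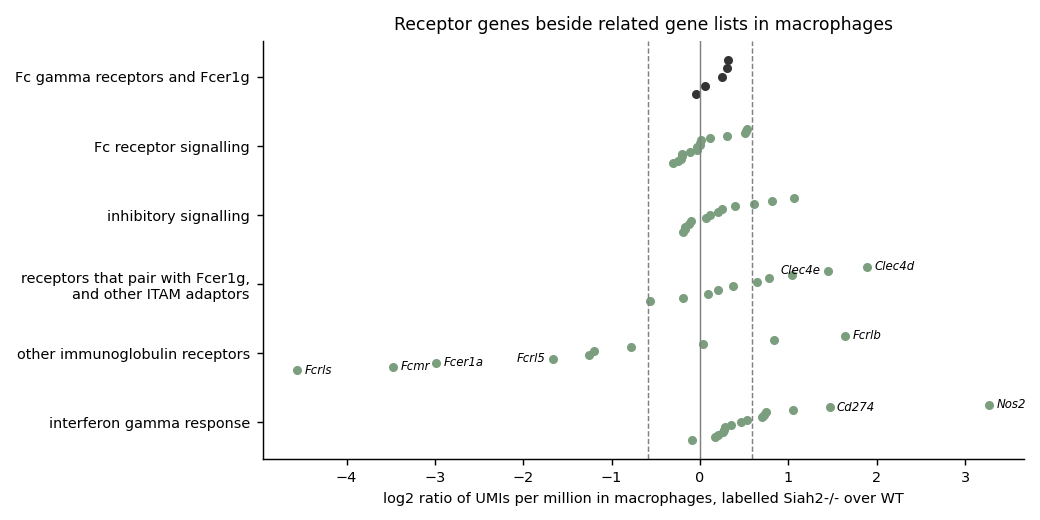
Log2 ratio of CPM in macrophages, library labelled Siah2-/- over WT, for the 5 genes and for each gene of 5 related lists with at least 20 UMIs; dashed lines are 1.5-fold. The 5 genes and Fc receptor signalling stay inside the dashed lines, while the other lists reach beyond them.

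The genes whose levels followed each of the 5 genes most closely were named from 12676 candidates over 15 classes in 2 libraries. These are 30 points that share libraries, depth and released RNA, and the Pearson r of log2 levels is a description. Fcgr1 was followed most closely by Ms4a6c (0.996), Lrrc25 (0.991), Pld4, Cybb and Cd68 (0.986). Fcgr3 was followed by Itgam (0.986), Ctsc, Tpd52 and Hk3 (0.979). For Fcgr4 they were Msr1 (0.990), C3ar1, Pilra, C5ar1 and Cmklr1 (0.9795), and for Fcgr2b Clec4n (0.995), Clec5a, Sirpb1c and Csf1r (0.985). Fcer1g was followed by Tyrobp (0.973), Scimp, Aoah, Cd72 and AB124611 (0.932). Its r with the receptors ran from 0.808 with Fcgr4 to 0.915 with Fcgr3. Between 2 receptors r ran from 0.912, for Fcgr1 and Fcgr4, to 0.966, for Fcgr1 and Fcgr2b.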

How the data were processed

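The authors processed each library with Cell Ranger (version not given in the sources used here) against mm10 (GRCm38). The deposited counts are whole UMIs per gene and barcode, and the authors had removed cells with very few or very many detected genes, or rich in mitochondrial transcripts. A deposited table of natural log values, scaled per cell by the authors, served only for its list of cells. No column of another sample was present (0 columns).

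UMIs were summed per class and library with Python 3.11.15, numpy 2.4.6, scipy 1.17.1 and pandas 2.3.3. Macrophages needed at least 40 marker UMIs per 10000, T and NK cells 6 with under 20 of macrophage markers, immature DC 4 with at least 100 of MHC class II, mature DC 15 and stroma 8. Doublets were not called, and cells with T cell and macrophage markers formed their own class. Leaving that class out, 6468 of 8684 gated cells fell in the same class by nearest centroid. Genes with at least 20 UMIs in a class were compared and called past 1.5-fold. With 1 library per genotype there was no test: intervals are exact Poisson or conditional binomial, or normal on the log scale for a ratio of balances, at 95%, for counting error alone. The scripts were tested on simulated data.

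The 5 genes, lists and gates were chosen with earlier results of these data known. Of each list, the up to 8 genes with most UMIs were named, and Syk, Inpp5d and low genes past 1.5-fold were added after their values were seen. One macrophage state, which stays in the sums over macrophages and over other states, and some genes of the lists are not reported here.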

Additional observations from a re-analysis of the deposited data

Results flagged for a closer look

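Fcgr1 was past 1.5-fold in opposite directions in the 2 DC classes, with a log2 ratio of the library labelled Siah2-/- over WT of 0.75 in immature DC and -0.84 in mature DC. The difference between the classes was not tested, since each genotype is 1 library. The first value moved with macrophage markers in the gate, and so did the second, which rests on 86 and 62 UMIs. The immature DC value was inside 1.5-fold, at 0.56 in thinned cells, 0.18 with classes by nearest centroid, 0.45 over all barcodes with at least 1000 UMIs and 0.57 with the macrophage list under 20 per 10000, and the mature DC value was inside at -0.55 with nearest centroids and -0.36 over all barcodes with at least 1000 UMIs.

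Fcer1g was likewise past 1.5-fold in opposite directions, with a log2 ratio of 0.64 in immature DC and 0.76 in Treg and of -0.78 in CD4 T cells, of which the WT library held 20. The immature DC value was inside 1.5-fold, from 0.37 to 0.52, in 5 alternatives: cells with at least 6670 UMIs, thinned cells, nearest centroids, all barcodes with at least 1000 UMIs, and the macrophage list under 20 per 10000. The Treg value moved with NK markers, and these differences were not tested either.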

How the results depend on the processing

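None of the 5 genes passed 1.5-fold in macrophages under any of 12 alternatives. There the log2 ratio ran from -0.16 to -0.0022 for Fcgr1, 0.11 to 0.30 for Fcgr3, 0.24 to 0.36 for Fcgr4, 0.20 to 0.37 for Fcgr2b and 0.032 to 0.099 for Fcer1g. The log2 ratio of the macrophage balance, -0.11, kept its sign under 13 alternatives. It was -0.18 in cells with at least 6670 UMIs, -0.043 in thinned cells and -0.18 over all barcodes with at least 1000 UMIs, and -0.025, -0.16 and -0.16 with Fcgr1, Fcgr3 or Fcgr4 left out of the sum. The count of 5 genes past 1.5-fold in immature DC was 4 in cells with at least 6670 UMIs, 3 in thinned cells, 2 with classes by nearest centroid, 3 over all barcodes with at least 1000 UMIs, and 2 with the macrophage list under 20 per 10000, an alternative chosen after seeing the data. Apart from leaving genes out of the sum, the cause was not tested. With genes of at least 1 UMI, the shares past 1.5-fold higher and lower were 19.4% and 15.1% in macrophages, 23.6% and 20.0% in immature DC, and 23.7% and 11.2% in NK cells. No paired analysis was possible because each genotype is 1 library, and no replicate could be left out. Depth limits mature DC and the T cell subsets, where a few cells hold many of the UMIs.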
